A study of Mus musculus with 8 samples.

Results

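The genes described here encode the proteins of the cytosolic ribosome. They were taken from the gene table by name: every gene whose symbol is Rpl, Rps or Rplp followed by a number and any further letters or digits, plus Rpsa, leaving out the ribosomal protein S6 kinases and Rps19bp1. This gave 91 of 45706 genes, of which 53 belong to the large subunit (including the P-stalk genes) and 38 to the small subunit. All 91 identifiers are in GENCODE release M21 of mouse build GRCm38, where 85 are annotated as protein coding and 6 as processed pseudogenes (Rps3a2, Rps3a3, Rps4l, Rpl37rt, Rps12l1 and Rps12l2). The members lie on 19 chromosomes, with 15 of them on chromosome 7.

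RNA was sequenced from the liver of 4 WT and 4 PLIN5 S155A mice, 1 library per mouse, each labelled as a separate biological replicate. All 8 mice were female C57BL/6J, 4 months old and fasted overnight, so that fasting is shared by both groups and no fed liver was compared here. The S155A mice carry a whole-body knock-in in which a phosphorylated serine of perilipin 5, a lipid droplet protein, is replaced by alanine in every tissue, and the question addressed was which liver genes differ without that phosphorylation. The number in each mouse's label is at most 123 for replicates 1 and 4 of both genotypes (called the low series here) and at least 830 for replicates 2 and 3 (the high series), and what that number marks is not stated.

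Library totals lay between 39709785 and 54540864 estimated counts. The labels give hepatocytes as cell type beside liver as tissue, and markers of other liver cells were present: the summed CPM (estimated counts relative to library size, after TMM scaling) of 8 Kupffer cell markers ranged from 224 to 514, against 96930 to 137600 for 8 hepatocyte markers. Libraries that stood apart by such lists were S155A replicate 3, with 2070 CPM of 13 lymphocyte markers against 21.2 to 49.7 in the other mice, and WT replicate 2, with 11.5 CPM of 10 pancreatic acinar markers against 0.19 to 0.77. WT replicate 1 had the lowest summed levels of red blood cell, lymphocyte and cholangiocyte markers (411, 21.2 and 27.1 CPM), and WT replicate 4 the highest of red blood cell markers (2647 CPM). Plin5 itself was at 254, 194, 183 and 194 CPM in WT replicates 1 to 4 and at 457, 276, 192 and 386 CPM in S155A replicates 1 to 4, and a changed codon is not seen in gene counts, so this level does not check the genotype labels.

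A cytosolic ribosome joins a small subunit, which reads the mRNA, to a large subunit, which makes the peptide bond. The subunits hold their proteins in fixed proportion, and the mRNAs of these proteins form a coordinated set: most begin with a run of pyrimidines directly at the cap, the 5′ terminal oligopyrimidine (TOP) tract, through which mTORC1 and LARP1 control their translation and stability. In liver, feeding and fasting are known to act on ribosome production through this pathway.

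Start sites are shown first, because the TOP tract is the feature by which these mRNAs are recognised as a set. RefSeq promoter windows for GRCm38.p6 were matched by symbol for 66 of the 91 genes, with 78 annotated starts in all. Each line below gives the 30 bases around an annotated start, 15 on each side, on the gene's own strand, with the longest unbroken run of C and T in capitals. Rpl13a, Rpl12 and Rps18 are shown because they had the smallest p among members, Rps6 because its protein is the classic readout of mTORC1 signalling, Rpl22l1 as a paralog, and Rps15a and Rpl7l1 because their mRNA levels did not follow the other members.
Rpl13a, chr7:45128731-45128760, minus strand: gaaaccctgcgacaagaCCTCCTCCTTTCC
Rpl12, chr2:32961697-32961726, plus strand: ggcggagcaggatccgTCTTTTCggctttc
Rps18, chr17:33955651-33955680, minus strand: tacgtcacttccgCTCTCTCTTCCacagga
Rps6, chr4:86857353-86857382, minus strand: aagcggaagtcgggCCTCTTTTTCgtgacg
Rpl22l1, chr3:28805493-28805522, plus strand: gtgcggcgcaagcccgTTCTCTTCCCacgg
Rps15a, chr7:118116133-118116162, minus strand: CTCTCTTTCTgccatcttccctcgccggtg
Rpl7l1, chr17:46782642-46782671, minus strand: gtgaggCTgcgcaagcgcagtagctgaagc

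The runs in these lines are 13 bases for Rpl13a, 7 for Rpl12, 11 for Rps18, 10 for Rps6, 10 for Rpl22l1, 10 for Rps15a and 2 for Rpl7l1. A run of at least 8 bases was present in 28 of the 78 member windows (35.9%), compared with 12.0% of 32851 windows of all genes in the promoter table. The annotated start base was a C followed without a break by C or T, for at least 5 bases counted from the start, in 14 member windows (17.9%) and in 2.5% of all windows, and such a run could also reach upstream of the start, as in Rps6 and Rps18. An annotated start can lie some bases from the cap used in liver, so a window without a run at its centre says nothing about the cap itself.

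In the wider windows, 250 bases before to 50 after the start and read on both strands, the ETS core CCGGAAG was present in 27 of the 78 member windows (34.6%) against 8.9% of all. The YY1 letters AAGATGGC were present in 8 (10.3%) against 2.7%, the TATA letters TATAAA in 7 (9.0%) against 13.6%, and the E-box CACGTG in 8 (10.3%) against 7.2%. The letters of the ETS core and of YY1 can overlap by AAG, and both on their other strand can overlap a C/T run. These are matches of letters and show no binding.

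Of the 91 genes, 86 had enough counts to be tested, 50 of the large and 36 of the small subunit. The 5 that were not tested were low in all mice: Rpl3l, which replaces Rpl3 in muscle, had between 1.15 and 9.55 counts per library, Rpl39l, a testis paralog, had at most 5.14, and Rps12l2 had at most 3.22. Rpl10l, also a testis paralog, had 0 counts in every library, which allows up to 0.0755 CPM in the shallowest (3 counts). Rps12l1 had 66.2 counts in WT replicate 3 and 60.7 in WT replicate 4 and 0 in the other 6 mice, and every 31-base word of its sequence also occurs in transcripts of other genes, Rps12 among them.

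Together the 91 genes took 1.86, 2.21, 1.90 and 2.25% of all counts in WT replicates 1 to 4 and 2.26, 2.21, 2.21 and 2.34% in S155A replicates 1 to 4. Mean shares were 2.05% ± 0.20 in WT and 2.26% ± 0.063 in S155A (SD, n = 4 each), a difference of 0.201 percentage points. WT replicates 1 and 3 stood below all other mice, while WT replicate 2 lay just under the S155A mice and WT replicate 4 among them. The 95% Wilson interval of each share reached at most 0.0046 percentage points to either side, so counting error was small beside the spread between mice, and it covers counting error only.

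**Figure D1:**
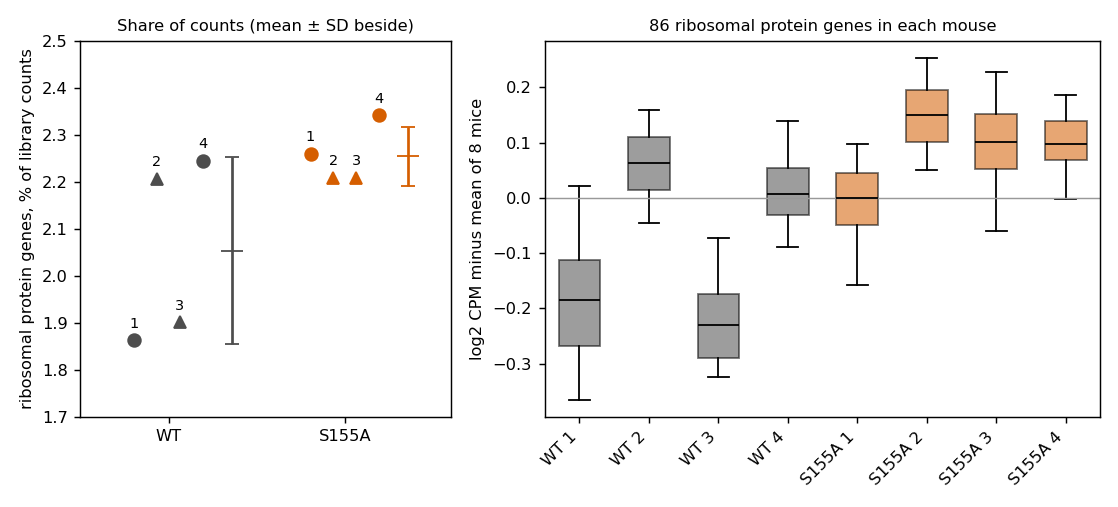
Left, the percent of a library's estimated counts from the 91 ribosomal protein genes in each mouse (circles, low series; triangles, high series; digits, replicate; bars beside, mean ± SD of 4 mice; the axis starts above 0). Right, log2 CPM of the 86 genes tested minus each gene's mean over 8 mice (box, quartiles; line, median; whiskers, 5th to 95th percentile). WT replicates 1 and 3 sit lowest, with medians of -0.18 and -0.23.

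The ratio of large to small subunit counts was nearly constant. It was 1.44 ± 0.018 in WT and 1.45 ± 0.026 in S155A mice (SD, n = 4 each), and the 8 values lay between 1.42 and 1.47. The subunits therefore moved by similar amounts in each mouse: the median deviation of large subunit genes from their own means was -0.18, 0.063, -0.22 and 0.0018 in WT replicates 1 to 4 on the log2 scale, and that of small subunit genes was -0.19, 0.068, -0.23 and 0.031.

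In S155A compared with WT liver, no ribosomal protein gene passed the test, and most fitted differences were small and of the same sign. No member was called at an adjusted p under 0.05 by edgeR's quasi-likelihood test, where 0.00% of all 14629 genes tested were called, and the smallest adjusted p of a member was 0.993. The fitted log2 fold change was above 0 for 83 of the 86 members, against 48.8% of all genes tested. The median of the members was 0.17, a 1.13-fold difference (SE of single genes 0.11 at the median), against -0.0050 for all genes. All 50 large subunit genes were above 0, with a median of 0.17, and 33 of 36 small subunit genes, with a median of 0.17; with library size as the only scaling these counts were 48 of 50 and 32 of 36. Because the members varied together over the mice, these 86 values are not 86 independent observations.

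At an unadjusted p under 0.05 there were 5 members, all higher in S155A (Rpl13a, Rpl12, Rps18, Rpl11 and Rpl32), where 3.40% of all genes tested passed this limit and 1.42% passed it and were higher. DESeq2 and limma-voom also called 0 members after adjustment. By DESeq2 11 members were at an unadjusted p under 0.05, against 4.06% of all genes, and by limma-voom 7, against 3.19%. WT and S155A values did not overlap for 11 of 86 members, all higher in S155A, where 2.30% of all genes tested did not overlap and 0.943% were higher without overlap. These were Rpl8, Rpl10a, Rpl11, Rpl12, Rpl13a, Rpl17, Rpl27, Rpl34, Rpl39, Rps18 and Rps27a. The count at an unadjusted p under 0.05 depended on single mice: it was 0 without WT replicate 3 (2.40% of all genes in that fit), 0 without S155A replicate 2 (2.49%), and 23 without WT replicate 2 (4.61%). Without S155A replicate 3, the library with the lymphocyte markers, the count was 2 (2.43% of all genes in that fit). In the same fit, 84 of 86 members were above 0 with a median of 0.16.

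**Figure D2:**
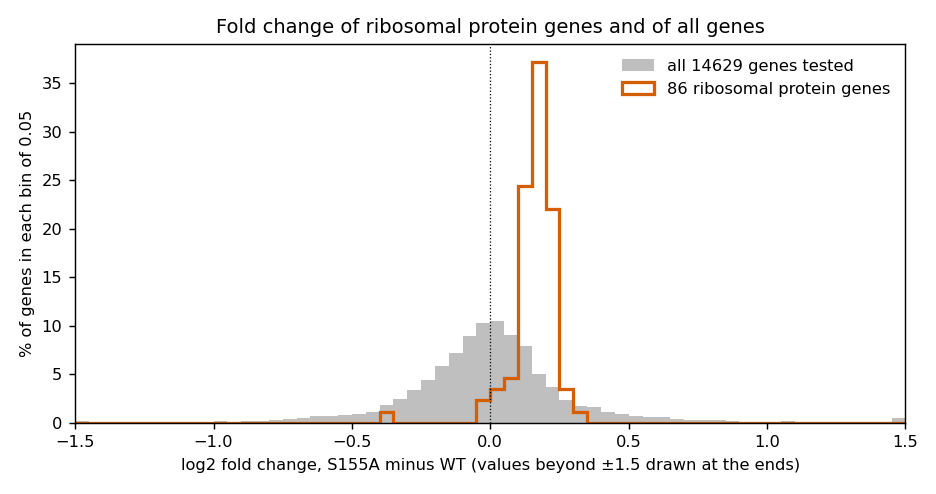
Distribution of log2 fold changes (S155A minus WT, edgeR) for all 14629 genes tested (grey bars) and for 86 ribosomal protein genes (orange outline), as percent of genes per bin of 0.05. The members form a narrow peak with a median of 0.17, and 75 of the 86 lie between 0.1 and 0.3.

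Rpl13a, whose protein also takes part in interferon-induced silencing of inflammatory mRNAs, had the highest fold change of the 86. It lies at chr7:45125558-45128761 on the minus strand. Its levels were 412, 534, 391 and 489 CPM in WT replicates 1 to 4 and 539, 634, 571 and 563 CPM in S155A replicates 1 to 4. The groups did not overlap, although the highest WT value was close to the lowest S155A value. The log2 fold change was 0.34 (SE 0.12, a 1.26-fold difference), with an unadjusted p of 0.0203 and an adjusted p of 0.993 by edgeR. The two-sided exact permutation test gave 0.0286, the smallest p that 4 mice against 4 allow. Every gene without overlap gets this value, so it only restates the lack of overlap.

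Rpl12, a protein of the stalk base, was at 171, 184, 160 and 194 CPM in WT and at 225, 221, 196 and 209 CPM in S155A replicates 1 to 4. All S155A values were above all WT values, with a log2 fold change of 0.26 (SE 0.10). Rps18, a protein of the small subunit head, was at 383, 442, 357 and 442 CPM in WT and at 449, 503, 488 and 493 CPM in S155A mice, with a log2 fold change of 0.25 (SE 0.11). In both genes WT replicate 3 was the lowest mouse.

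Rpl5 and Rpl11 bind 5S rRNA together and, when free of ribosomes, bind MDM2. Rpl11 was at 294, 323, 267 and 316 CPM in WT and at 324, 373, 350 and 364 CPM in S155A replicates 1 to 4, without overlap. Rpl5 was at 326, 321, 226 and 334 CPM in WT and at 324, 333, 350 and 345 CPM in S155A replicates 1 to 4. Here the groups overlapped, and WT replicate 3 alone was far below the other 7 mice. Rpl32 was at 165, 202, 158 and 187 CPM in WT and at 202, 217, 208 and 211 CPM in S155A mice, so that the lowest S155A value coincided with WT replicate 2.

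The P-stalk, made of Rplp0 and the acidic proteins Rplp1 and Rplp2, recruits the GTPases of elongation. Its 3 genes had log2 fold changes between 0.16 and 0.20 and none passed an unadjusted p of 0.05. Rplp1 was at 318, 452, 357 and 448 CPM in WT and at 415, 523, 458 and 419 CPM in S155A replicates 1 to 4. WT replicates 2 and 4 lay inside the S155A range.

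A further list held 13 members with roles outside peptide synthesis or in disease. All 13 had log2 fold changes above 0, between 0.12 and 0.34, with a median of 0.17, and 4 of them (Rpl10a, Rpl11, Rpl13a and Rps27a) did not overlap, against 2.30% of all genes tested; the list was chosen by hand. Rps6, the substrate of the S6 kinases, was at 350, 378, 330 and 388 CPM in WT and at 382, 417, 393 and 379 CPM in S155A mice, with a log2 fold change of 0.12 (SE 0.095), near the lower end of the list. Rps19, the gene most often mutated in Diamond-Blackfan anaemia, had 0.18 (SE 0.11), and Rpsa, also known as the laminin receptor, 0.24 (SE 0.11).

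Rps27a, which is made as a fusion with ubiquitin, ranged from 225 to 272 CPM in WT and from 276 to 295 CPM in S155A mice. The name pattern leaves out other ribosomal parts, and among them are Fau, which encodes a ubiquitin-like fusion with a ribosomal protein, and Rack1, listed in the table under its older symbol Gnb2l1. Their log2 fold changes were 0.23 (SE 0.13) and 0.18 (SE 0.099). Gnb2l1 was at 323, 358, 290 and 351 CPM in WT and at 378, 374, 360 and 386 CPM in S155A mice, without overlap. In Fau and Gnb2l1, WT replicates 1 and 3 were the lowest mice.

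The most abundant members by CPM, a scale that is not corrected for transcript length, were Rps2, Rpsa and Rpl4, with means over 8 mice of 736, 656 and 559 CPM. Their log2 fold changes were 0.20 (SE 0.11), 0.24 (SE 0.11) and 0.16 (SE 0.10). Of the 86 genes, 55 were above 200 CPM and 6 below 20 CPM on average.

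The members varied together from mouse to mouse. Over 8 mice, the median correlation of log2 CPM between pairs of members was 0.799 (quartiles 0.594 and 0.892). The correlation of a gene with the median of the members, its own value left out, was at least 0.8 for 69 of the 86 members and for 191 of 14543 other genes (1.31%). These correlations rest on the same 8 libraries and the same scaling, and are given as a description. The SD of log2 CPM over the 8 mice was 0.16 for the median member and 0.27 for the median gene tested.

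What they shared was mainly the low level of 2 WT mice. Of the 86 genes, 47 had their lowest value in WT replicate 3 and 32 in WT replicate 1, and in 65 these were the 2 lowest mice of all. WT replicate 2 or WT replicate 4 lay inside or above the S155A range in 75 of the 86. The highest value was in S155A replicate 2 for 41 members, S155A replicate 3 for 21 and S155A replicate 4 for 13. With library size as the only scaling, the median member was still lowest in WT replicates 1 and 3, at -0.21 and -0.16, with the other 6 mice between 0.035 and 0.13. In bulk liver, more ribosomal protein mRNA per cell and a different mixture of cells cannot be told apart.

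**Figure D3:**
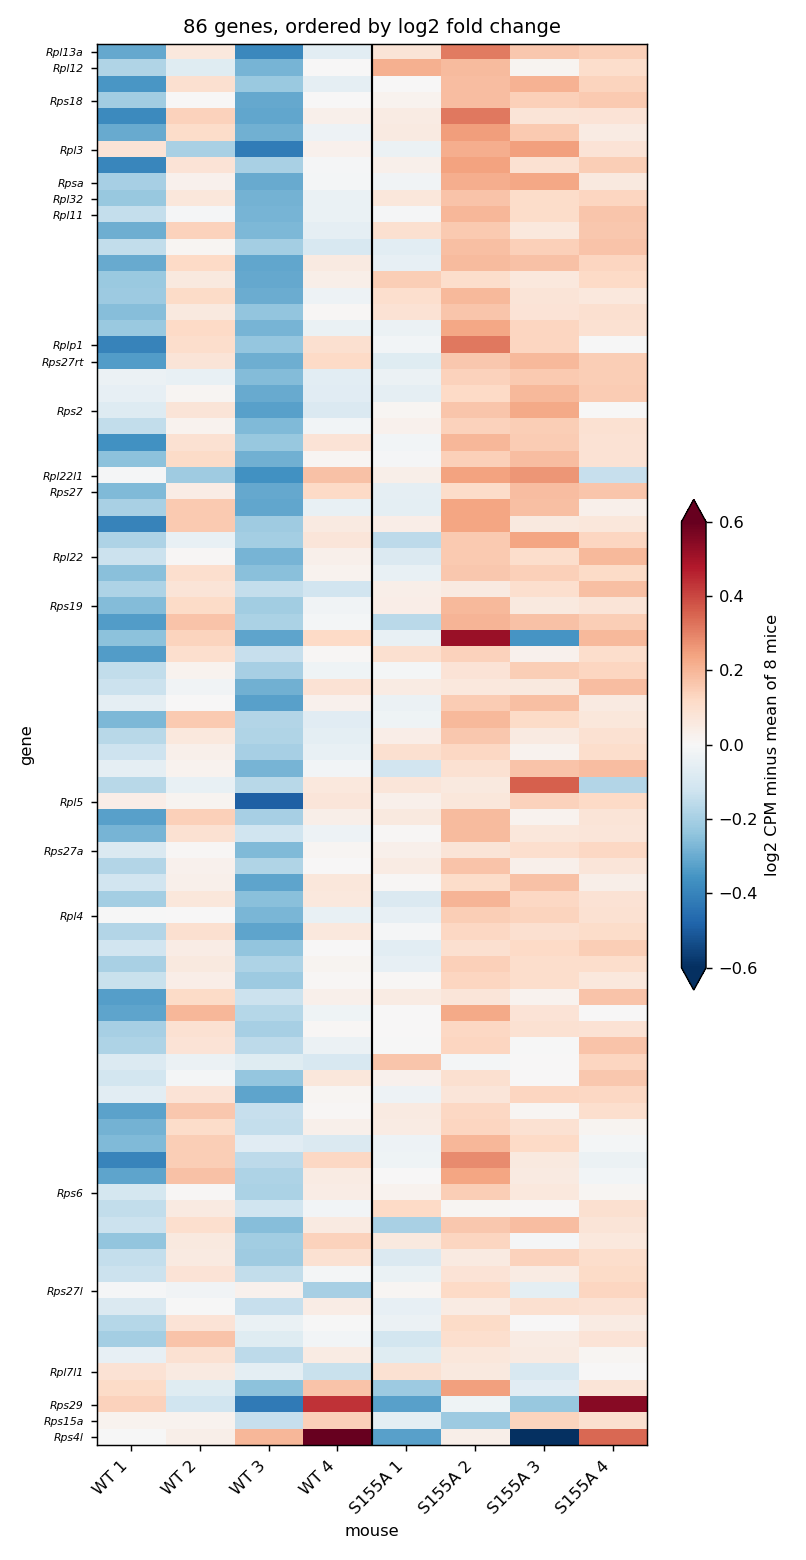
Log2 CPM of each of the 86 ribosomal protein genes tested (rows, ordered by log2 fold change from highest at the top) in each mouse (columns), minus the gene's mean over 8 mice; colours are capped at ±0.6 and genes with values in the text are labelled. WT replicates 1 and 3 form blue columns through 79 genes whose lowest value is in one of them, and Rps29 and Rps4l at the bottom break the pattern.

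WT replicate 1 belongs to the low series and WT replicate 3 to the high series. Within the low series, S155A minus WT was above 0 for 77 of 86 members with a median of 0.14, and within the high series for 84 of 86 with a median of 0.21 (2 mice per genotype and series). In both series at once 76 of 86 members were above 0, against 21.7% of all genes tested. The interaction of genotype and series called 0 members by edgeR, where 0.00% of all genes were called, with 2 at an unadjusted p under 0.05 against 11.1% of all genes.

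Those were Rpl22l1 and Rpl3, named after their values were seen. Rpl3, which shapes the peptidyl transferase centre, was at 353, 292, 249 and 340 CPM in WT and at 325, 389, 396 and 353 CPM in S155A replicates 1 to 4. Its S155A minus WT difference was 0.54 in the high and -0.031 in the low series, and the adjusted p of the interaction was 0.325 by edgeR. Between the series, with genotype in the fit, 0 members were called and 1 (Rps29) had an unadjusted p under 0.05, against 12.8% of all genes tested. The members' median for high minus low was 0.035, with 66 of 86 above 0, and this direction turned with library size as the only scaling (-0.034, 31 of 86 above 0) and without WT replicate 2 (-0.013, 34 of 86).

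Several members did not follow the rest. Rps29, a zinc-binding protein of the small subunit head at chr12:69157722-69159186 on the minus strand, was at 298, 250, 202 and 366 CPM in WT and at 216, 266, 232 and 395 CPM in S155A replicates 1 to 4. Replicate 4 was the highest mouse in both genotypes, and the genotypes overlapped fully. Its log2 fold change was -0.0091 (SE 0.22), its correlation with the median of the members was 0.27, and its high minus low series difference was -0.43 (SE 0.19), with an unadjusted p of 0.0465 and an adjusted p of 0.380 by edgeR.

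Rps15a was at 103, 103, 92.4 and 112 CPM in WT and at 97.9, 87.7, 112 and 109 CPM in S155A replicates 1 to 4. No shift between the genotypes was visible, with a log2 fold change of -0.018 (SE 0.11) and a correlation of 0.16 with the other members. Its start window, shown above, holds a C/T run of 10 bases, which begins at position -15 from the annotated start. A separate run covers the first 8 bases from that start. Across the members, a run of at least 8 bases did not mark those with larger differences: the 27 tested genes with such a run had a median log2 fold change of 0.18, and the 36 with a shorter run 0.16.

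Rps4l, annotated as a transcribed processed pseudogene at chr6:148354656-148355598 on the plus strand, had the lowest log2 fold change, -0.37 (SE 0.25), with an unadjusted p of 0.163 by edgeR. It was at 14.5, 14.9, 16.7 and 22.2 CPM in WT and at 11.6, 14.9, 7.76 and 18.4 CPM in S155A replicates 1 to 4. The groups overlapped, and replicate 4 was the highest mouse of each genotype. Its correlation with the other members was -0.21.

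Of 9 paralogs of ribosomal protein genes listed, 6 were tested, and 1 of these (Rps27rt) had a correlation of at least 0.8 with the members' median. Of the 6, 5 had log2 fold changes above 0 (4 with library size as the only scaling), none passed an unadjusted p of 0.05, and the median was 0.083. Rpl7l1, which acts in large subunit assembly, ranged from 59.1 to 68.8 CPM in WT and from 60.6 to 69.1 CPM in S155A mice, with a log2 fold change of 0.026 (SE 0.093) that was below 0 with library size as the only scaling (-0.00759) and with the 50 most abundant genes left out of the scaling (-0.00111). Rps27l, a p53 target, ranged from 90.7 to 106 CPM in WT and from 100 to 114 CPM in S155A mice. Their correlations with the median of the members were -0.014 and 0.16.

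Rpl22 and its paralog Rpl22l1, which Rpl22 is known to repress, are both in the set. Rpl22 was at 106, 116, 95.5 and 118 CPM in WT and at 109, 129, 125 and 133 CPM in S155A replicates 1 to 4, while Rpl22l1 was at 14.3, 12.4, 11.2 and 16.3 CPM in WT and at 14.8, 17.0, 17.3 and 13.1 CPM in S155A mice. The log2 fold changes were 0.18 (SE 0.11) and 0.20 (SE 0.15). Rpl22l1 was above its WT partners in the high series by 0.54 and below them in the low series by -0.14.

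**Figure D4:**
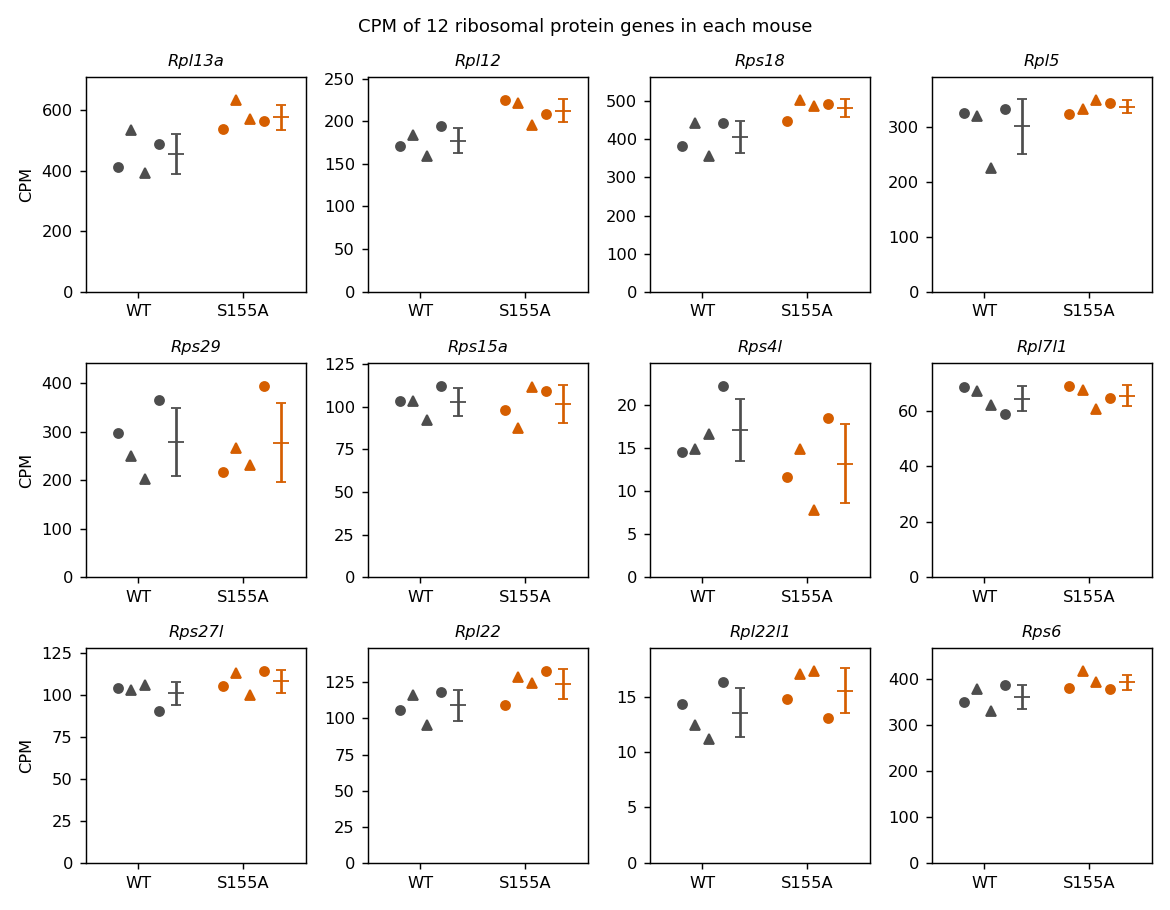
CPM of 12 ribosomal protein genes in each of the 4 WT (grey) and 4 S155A (orange) mice, in the order of replicates 1 to 4 (circles, low series; triangles, high series; bars beside, mean ± SD; axes start at 0). Rpl13a, Rpl12 and Rps18 do not overlap between genotypes, WT replicate 3 is low in Rpl5, and replicate 4 is the highest mouse of both genotypes in Rps29.

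Ribosomal protein genes have many processed copies in the mouse genome, and reads of 100 bases often match more than 1 of them. For the 85 members with a coding sequence, that sequence alone was cut into 31-base words, and untranslated ends were left out. Of these 85, 78 shared at least 50% of their words with transcripts of other genes, 35 shared all of them, and the median was 96.4%. The division of such reads rests on salmon's model. For Rpl13a the share was 97.6%, nearest to transcripts annotated to its neighbour Flt3l, and for Rpl12 and Rps29 it was 100%.

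The other 251 genes whose transcripts hold at least 50% of a member's words received between 1.92 and 2.15% as many counts as the members in each library. How the reads of a single gene were divided was not tested. Rps27 and its retrotransposed copy Rps27rt share all words of their coding sequences, so their separate values (log2 fold changes of 0.19 and 0.20) are uncertain. Their untranslated ends were not compared.

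Other genes of the pathway are given for comparison, and no list was tested against another. Of 40 ribosome biogenesis factors, all of them tested, 35 had log2 fold changes above 0 with a median of 0.13. An unadjusted p under 0.05 was found for 0 of these factors, against 3.40% of all genes tested. Their pattern over mice was another: the median factor was highest in S155A replicates 1 and 4, at 0.21 and 0.20, and 1 of the 40 reached a correlation of 0.8 with the ribosomal protein genes. Ppan, a factor of large subunit assembly, was at 19.3, 16.6, 16.4 and 23.3 CPM in WT and at 41.2, 13.9, 21.1 and 35.2 CPM in S155A mice, and its highest mice were S155A replicates 1 and 4, both of the low series.

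Of 77 mitochondrial ribosomal protein genes, 64 had log2 fold changes above 0 with a median of 0.11, and 5 correlated with the cytosolic members at 0.8 or more. An unadjusted p under 0.05 was found for 2 of the 77 (Mrps34 and Mrps35), against 3.40% of all genes tested. Of 19 translation factors and related TOP genes, 13 were above 0 with a median of 0.022, which turned to -0.013 with library size as the only scaling, and 4 reached a correlation of 0.8. Of the 19, 1 (Eef1b2) had an unadjusted p under 0.05, against 3.40% of all genes tested, and 6 were below 0. WT and S155A values did not overlap for 3 of the 19, against 2.30% of all genes tested. The genes with the smallest p in this list were the elongation factor subunits Eef1b2, Eef1g and Eef1d. Their log2 fold changes were 0.23 (SE 0.095), 0.17 (SE 0.092) and 0.18 (SE 0.12). Eef1g was at 171, 193, 168 and 193 CPM in WT and at 196, 206, 208 and 206 CPM in S155A mice, without overlap.

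Of 29 genes of mTORC1 and its regulators, 20 were above 0 with a median of 0.031, which turned to -0.0046 with library size as the only scaling. Of the 29, 1 had an unadjusted p under 0.05, against 3.40% of all genes tested. This was Depdc5, a subunit of the GATOR1 complex, with a log2 fold change of -0.39 (SE 0.16, unadjusted p 0.0339 and adjusted p 0.993 by edgeR). Depdc5 was at 11.6, 10.7, 15.5 and 11.7 CPM in WT and at 8.16, 10.03, 11.2 and 8.38 CPM in S155A mice, where S155A replicate 3 lay above WT replicate 2. Sesn1 had 0.41 (SE 0.21) and Ddit4 0.68 (SE 0.38), and Ddit4 was high in S155A replicates 2 and 3 (10.03 and 9.90 CPM) against 2.75 to 5.59 CPM in the other mice.

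**Figure D5:**
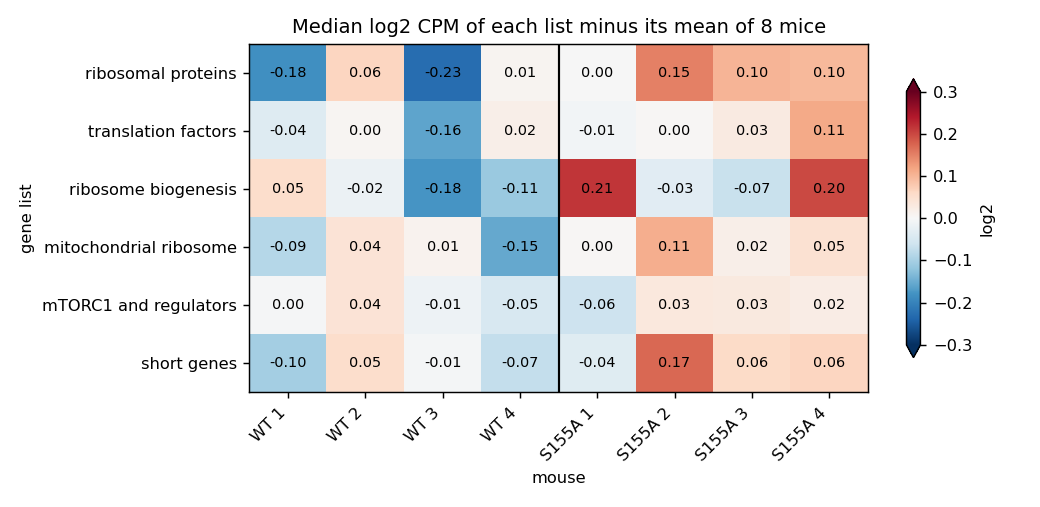
Median over the genes of each list (rows) of log2 CPM minus each gene's mean over 8 mice, in each mouse (columns); colours are capped at ±0.3. Ribosomal proteins are lowest in WT replicates 1 and 3, while ribosome biogenesis factors are highest in S155A replicates 1 and 4 (0.21 and 0.20).

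Other measures differed between the mice as well. Of 1056 tested genes whose longest annotated transcript is under 1000 bases and that are no members, 707 had log2 fold changes above 0 with a median of 0.11, and the median short gene was at -0.10, 0.054, -0.0063 and -0.072 in WT replicates 1 to 4 and at -0.037, 0.17, 0.058 and 0.065 in S155A replicates 1 to 4. Most ribosomal protein mRNAs are short. All 13 lymphocyte markers had log2 fold changes above 0 (median 0.94), 5 of them at an unadjusted p under 0.05 against 3.40% of all genes. The median lymphocyte marker deviated from its mean by 1.41 in S155A replicate 3, but by 0.046, -0.37 and -0.068 in S155A replicates 1, 2 and 4, and in the low series, which does not hold that mouse, 8 of 13 were above 0 with a median of 0.17. All 8 Kupffer cell markers were above 0 (median 0.24), with summed levels of 224 to 443 CPM in WT and 234 to 514 CPM in S155A mice. Their direction differed by series, with 1 of 8 above 0 in the low series (median -0.36) and 8 of 8 in the high series (median 0.88). The interaction had an unadjusted p under 0.05 in 5 of 8 by edgeR, against 11.1% of all genes, and called 0 of them. All 5 red blood cell markers were below 0 (median -0.54), with 411 to 2647 CPM in WT and 951 to 1154 CPM in S155A mice. The endothelial (2 of 8 above 0, median -0.27), stellate (1 of 7, -0.28) and cholangiocyte markers (1 of 5 tested, -0.24) were lower on balance, and 8 of 10 acinar markers were too low to be tested. The hepatocyte markers were above 0 in 5 of 8, with a median of 0.11. The part of transcript length or of other cells in the ribosomal protein levels was not tested.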

How the data were processed

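The authors isolated liver RNA with TRIzol, prepared stranded mRNA libraries (Illumina TruSeq) and read them as 100 bp pairs. They deposited estimated counts per gene from salmon, scaled for average transcript length and not for library size. The submitters' processing notes also name STAR, DESeq2 and build GRCm38; the salmon version and annotation are not given in the sources used here. The members and gene lists were chosen with earlier results of these data known.

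Estimated counts were rounded, and 14629 of 45706 genes passed filterByExpr. Genotypes were compared with edgeR 4.0.16 in R 4.3.3 (quasi-likelihood fit, TMM scaling, every mouse, genotype as the only term), and p-values were adjusted by Benjamini-Hochberg over all genes tested. Log2 CPM used a prior count of 2. Standard errors were derived from the F values. For single genes an exact two-sided permutation test of log2 CPM was added. The low and high label series were compared with genotype in the fit, and by an interaction term. No 2 libraries were copies (smallest chi-square 40.2 per gene). Named members were the 8 with the smallest p, the 3 highest and 3 lowest fold changes, the 3 most abundant, up to 8 without overlap, and those on lists of the P-stalk, paralogs and known roles; of other lists, up to 3 by p. Alternatives were DESeq2 1.42.0, limma-voom 3.58.1, other scalings and filters, a robust fit, blocks, and leaving out each mouse. Tests were checked on simulated counts. Start windows came from the RefSeq table for GRCm38.p6. The 31-base words of members' coding sequences were sought in GENCODE M21 transcripts, and members without a coding sequence were compared by their longest transcript. Some items are not reported here.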

Additional observations from a re-analysis of the deposited data

Results flagged for a closer look

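In 102 sets of 4 mice (the named genes, the share of counts and the subunit ratio, each in both genotypes), 8 values stood apart from the other 3 mice of their genotype by Dixon's criterion at the 95% level, where chance gives about 1 in 20, here about 5. Among ribosomal protein genes, Rpl5 was at 226 CPM in WT replicate 3 against 321 to 334 in the other WT mice. Rpl39 was at 67.9 CPM in WT replicate 3 against 77.8 to 79.5, and at 79.5 CPM in S155A replicate 1 against 89.7 to 90.6. Rps20 was at 172 CPM in S155A replicate 1 against 199 to 204. Rps3 was high in S155A replicate 4, at 353 CPM against 321 to 324, and Rpl8 in S155A replicate 2, at 445 CPM against 421 to 425. Among other genes, Eef1d was at 126 CPM in S155A replicate 1 against 139 to 140, and Mrps34 at 53.7 CPM in WT replicate 2 against 46.2 to 47.0.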

How the results depend on the processing

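No alternative called a ribosomal protein gene in any of the 3 comparisons. Among all genes, DESeq2 called 408 between the series and 285 for the interaction, against 0 for both in the main edgeR fit. Without the filter on low counts, edgeR called 514 and 765. The number of all genes called between the genotypes was 0 by edgeR and 6 with DESeq2, none of them a member, and the cause was not tested. The members' median log2 fold change stayed between 0.13 (library size as the only scaling) and 0.17 under other tools, scalings and filters. In these fits 80 to 83 members were above 0. They were out of 86, except without the filter on low counts (83 of 90) and with at least 1 CPM in 4 libraries (82 of 85). When each mouse was left out, the members' median lay between 0.13 (without WT replicate 3) and 0.22 (without WT replicate 2). The difference in share of counts was 0.137 (without WT replicate 1) to 0.265 percentage points (without WT replicate 4). Library size as the only scaling shifted the median of all genes to -0.042.

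The direction changed for Rpl7l1 with library size alone (-0.00759) and without the 50 most abundant genes (-0.00111), and for Rps29 with the label series as a block (0.00983). Leaving out each mouse gave -0.229 to 0.15 for Rps29, -0.0656 to 0.054 for Rps15a and -0.0136 to 0.0632 for Rpl7l1. With the replicate number as a block, 0 members were called, 9 had an unadjusted p under 0.05 (3.96% of all genes in that fit) and the median was 0.173. Same-numbered mice correlated at 0.0565, 0.166, -0.111 and 0.129 in their deviations from the group means. Differently numbered mice of the 2 genotypes correlated at -0.194 to 0.14. Deviations from a group mean cancel over the group, so these values cannot decide whether the numbers pair the mice. With 4 mice per genotype, the members' median of 0.17 stood beside a median SE of 0.11 for single members. In 12 of the 86 members tested the SE was above the size of the log2 fold change, and no single member was called.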
